A study of Drosophila melanogaster with 2 samples.

Results

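The genes described here are 8 transcription factors that mark subtypes of neurons in the Drosophila embryo: tup, Lim1, Lim3, ap, zfh1, exex, ct and acj6. They were chosen by name as factors of motor neuron or interneuron identity, by a rule that uses no measured value. The choice was made with earlier results of these data known. All 8 were found by symbol among the 13623 genes of the deposited expression table. Each was above 1 FPKM (reads scaled by transcript length and library depth) in both libraries, as were 64.0% of all genes.

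Nuclear RNA was sequenced from 1 library of glial nuclei and 1 library of nuclei of Gcm-expressed neural progenitor (GNP) cells. Glial nuclei came from embryos 12 to 14 h after egg laying, in which repo-Gal4 drove the tag in a line kept over the balancer Tm3B. GNP nuclei came from embryos 5 to 7 h after egg laying, in which gcm-Gal4 drove the tag in a line that also carried UAS-mCDGFP and the balancer cyo; the sample labels name these cells early glial cells, and the glia late glial cells. In both lines the tag was UAS-3xFLAG-blrp-mCherry-RanGap, a nuclear envelope protein by which nuclei were pulled with anti-Flag beads from whole cross-linked embryos (INTACT). The paper gives the glial balancer as Tm3 and lists no balancer in the flies whose embryos gave GNP nuclei. The driver gcm-Gal4 is also active in hemocyte precursors. Cell type, embryo age and driver line changed together and cannot be told apart. With 1 library of each cell type there was no replicate error, so every difference is given without a test, and "higher" or "lower" compares these 2 libraries.

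A neuron acquires its subtype, such as the muscle it innervates or the transmitter it makes, through combinations of transcription factors that it switches on around its last division. LIM-homeodomain proteins, which pair a DNA-binding homeodomain with LIM domains for protein contacts, form such combinations together with the cofactor Chip. In the embryonic nerve cord tup (also called islet), Lim3 and exex (the fly HB9) mark motor neurons that grow to ventral muscles, while eve marks those that grow to dorsal muscles. Several of these genes also act outside the nervous system, so that a level in bulk nuclei need not come from neurons.

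None of the 8 factors was lower in the glia library by 2-fold, and 4 of 8 were at least 2-fold higher on the log2(FPKM + 1) scale, namely Lim3, Lim1, ct and acj6. Over all genes 21.2% passed the same limit upwards in glia and 16.4% downwards. Where genes averaging under 1 FPKM were left out, 28.7% passed it upwards and 22.5% downwards. The median log2 change of the 8 factors was 1.06, against 0.037 for all genes. Lim3 and Lim1 also passed 4-fold, which 8.46% of all genes did. With 1 FPKM added, a gene averaging under 1 FPKM cannot reach 4-fold, so the share among the remaining genes is higher. Adding 1 FPKM before taking logs makes the change of low genes look smaller, so the plain ratio of FPKM values is given beside it.

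**Figure D1:**
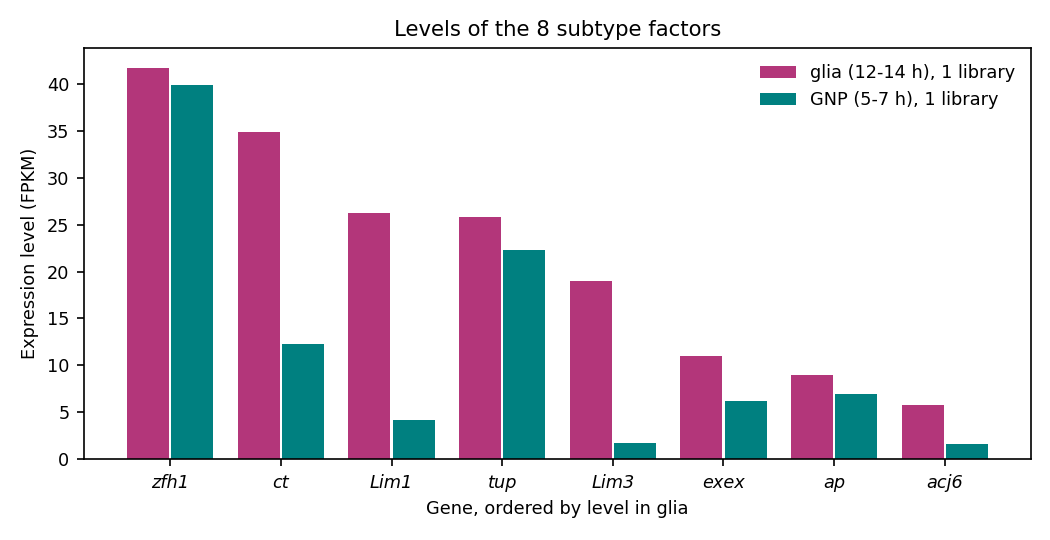
Level in FPKM of the 8 subtype factors in the glia library (left bar of each pair) and the GNP library (right bar), 1 library each, so that no error bar can be drawn. Lim1 and Lim3 stand at 26.3 and 19.0 FPKM in glia beside 4.21 and 1.76 FPKM in GNP, while zfh1 has nearly equal bars of 41.8 FPKM in glia and 40.0 FPKM in GNP.

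Among the motor neuron factors Lim3 had the largest difference. Lim3, a LIM-homeodomain gene used in ventrally projecting motor neurons, was at 19.0 FPKM in glia and 1.76 FPKM in GNP. This is a ratio of 10.8 and a log2 change of 2.86, the largest of the 8. It stood at percentile 66.6 of all genes in the glia library and at percentile 38.6 in the GNP library.

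Its partner tup, a LIM-homeodomain gene that is also needed in dorsal tissues and the heart, was at 25.9 FPKM in glia and 22.3 FPKM in GNP. The log2 change was 0.21, under the 2-fold limit, and its sign turned when both libraries were scaled to the same sum (TPM), with a value of -0.037. The 2 genes, which are read together in the motor neuron code, were therefore unequal in GNP and close in glia. Lim3 was at 0.736 times the level of tup in the glia library, against 0.0788 times in the GNP library. This ratio within a library does not depend on how the libraries are scaled.

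The homeodomain gene exex was at 11.0 FPKM in glia and 6.14 FPKM in GNP, a ratio of 1.79 and a log2 change of 0.75. It stayed under the 2-fold limit. Its level relative to tup was 0.426 in glia and 0.275 in GNP.

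The zinc finger homeodomain gene zfh1, which acts in motor neurons and also throughout the early mesoderm, was the highest of the 8 factors in both libraries. It was at 41.8 FPKM in glia and 40.0 FPKM in GNP, with a log2 change of 0.062 that became -0.19 under TPM scaling. It lay at percentile 82.3 of all genes in glia and 78.8 in GNP. The BDGP6 annotation places an antisense RNA, CR45189, over 315 of the 6915 exon bases of zfh1, and the strand of the libraries is not given in the sources used here, so reads of the pair over these bases cannot be told apart.

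The interneuron factors Lim1 and ap, both LIM-homeodomain genes, differed from each other. Lim1, which marks sets of interneurons and some motor neurons, was at 26.3 FPKM in glia and 4.21 FPKM in GNP, a ratio of 6.24 and a log2 change of 2.39. It stood at percentile 73.5 in glia and 46.7 in GNP. The gene ap, which marks a small set of interneurons that includes peptide-releasing cells and acts in some muscles, was at 9.00 FPKM in glia and 6.89 FPKM in GNP. Its log2 change was 0.34, and its percentile was 51.4 in glia and 51.8 in GNP. The FPKM ratio of Lim1 to ap was 2.92 in glia and 0.611 in GNP, so the order of the pair was opposite in the libraries.

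The remaining factors are best known from sensory neurons. The homeodomain gene ct, which sets the identity of external sensory organs and is also used in the Malpighian tubules, was at 34.9 FPKM in glia and 12.2 FPKM in GNP. The ratio was 2.85 and the log2 change 1.44. The POU-homeodomain gene acj6, known for its part in the choice of odorant receptors and in cholinergic neurons, was the lowest of the 8 in both libraries, at 5.78 FPKM in glia and 1.64 FPKM in GNP. Its ratio was 3.53 and its log2 change 1.36.

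**Figure D2:**
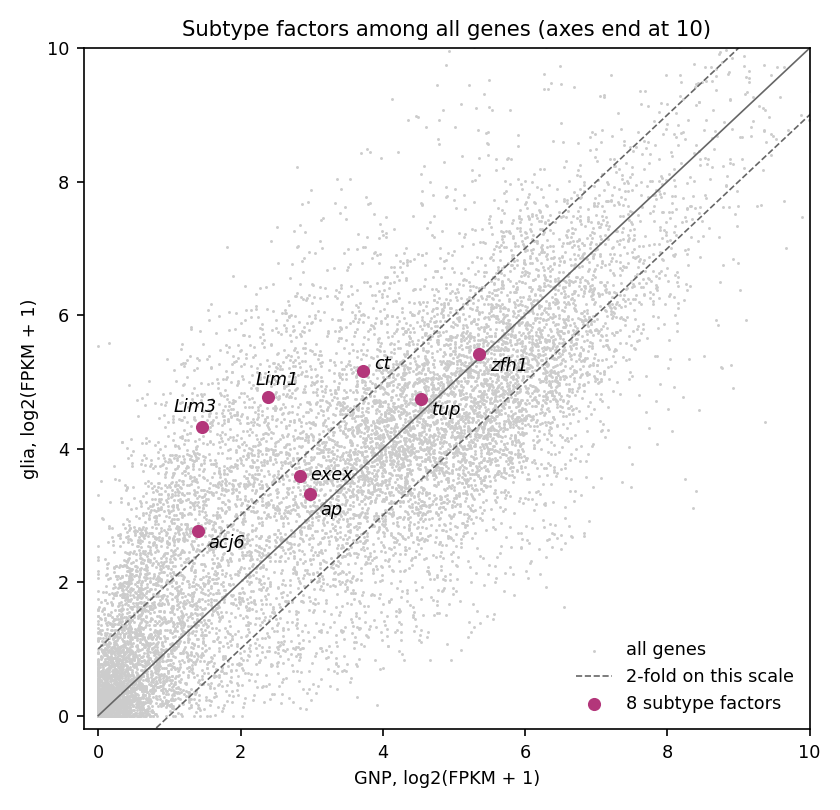
Level of every gene as log2(FPKM + 1) in the GNP library (horizontal) and the glia library (vertical), with the 8 subtype factors as large points, the line of equal level and dashed lines at 2-fold on this scale; genes above 10 lie outside the axes. Lim3, Lim1, ct and acj6 lie above the upper dashed line and zfh1, tup, ap and exex between the lines.

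From highest to lowest, the order in glia was zfh1, ct, Lim1, tup, Lim3, exex, ap and acj6. In GNP it was zfh1, tup, ct, ap, exex, Lim1, Lim3 and acj6. Only the highest and the lowest gene, 2 of the 8, had the same rank in both. Of the 28 pairs of factors 7 swapped their order, and the ratio between the genes of a pair differed at least 2-fold between the libraries in 17. The share of such pairs among other genes was not computed, so these counts cannot be called particular to the 8 factors. Without replicates, whether neighbours in either order differ beyond the spread between samples could not be assessed.

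The FPKM values of the 8 factors summed to 173.6 in glia and 95.1 in GNP, a ratio of 1.83, while those of all genes had a ratio of 1.19. The 2 highest GNP genes took less of the glial sum. Thus zfh1 made up 24.1% of the summed level in glia and 42.0% in GNP, and tup made up 14.9% in glia and 23.4% in GNP. Lim1 made up 15.1% in glia and 4.43% in GNP, and Lim3 11.0% in glia and 1.85% in GNP.

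The counts behind these values were large. From the steps of whole reads among low genes, about 51.9 M reads were estimated for glia and 63.5 M for GNP, assuming fragments of 200 bases. With the shortest annotated transcript of each gene, which gives the fewest reads, acj6 then had about 712 reads in glia and 246 in GNP, and Lim3 about 2059 in glia and 232 in GNP. The exact 95% interval of the ratio from counting error alone was 9.47 to 12.5 for Lim3, 5.74 to 6.79 for Lim1, 2.78 to 2.93 for ct and 3.06 to 4.11 for acj6. It was 1.64 to 1.96 for exex, 1.19 to 1.44 for ap, 1.10 to 1.22 for tup and 1.01 to 1.08 for zfh1. These intervals do not cover differences between embryo collections or libraries, nor the choice of scaling.

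In the BDGP6 annotation, which is later than the one the authors used, tup lies on chromosome 2L from 18859507 to 18881261 and Lim3 on the same arm from 19079256 to 19108427, both on the minus strand and 197994 bases apart. Lim1 (8756539 to 8805804, minus strand), ct (7608428 to 7678859, plus strand) and acj6 (15350239 to 15379064, minus strand) lie on chromosome X. The gene zfh1 lies on 3R from 30765926 to 30789202 and exex on 3L from 7948186 to 7951563, both on the plus strand, and ap lies on 2R. The genes differ in form. At one end exex has 1 transcript of 3 exons within 3378 bases, and at the other ct spans 70432 bases and acj6 has 13 transcripts. Other than the antisense RNA over zfh1, no annotated gene shared exon bases with any of the 8.

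**Figure D3:**
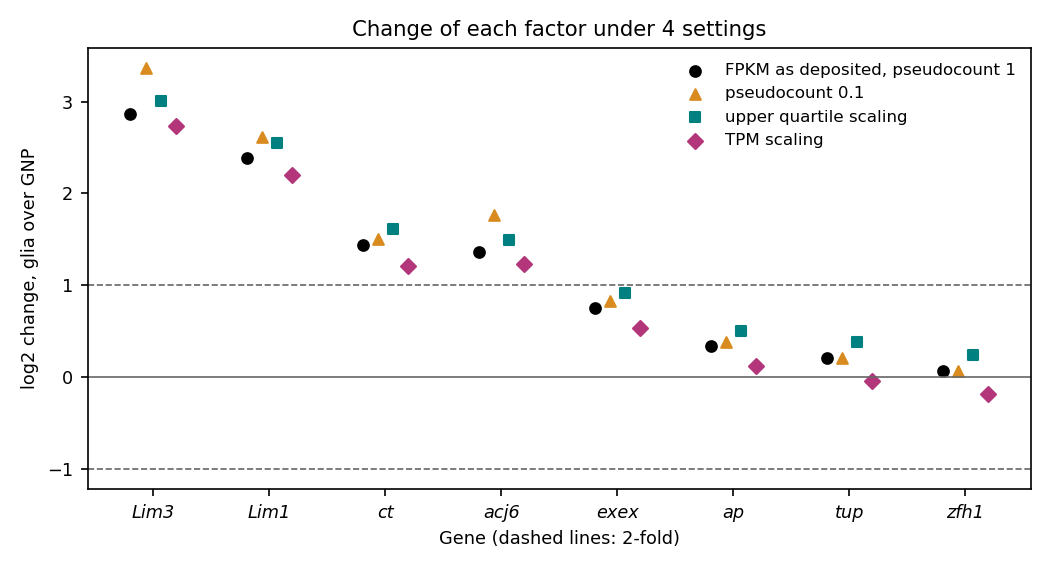
The log2 change of each factor, glia over GNP, as deposited with a pseudocount of 1 FPKM (circles), with a pseudocount of 0.1 (triangles), after upper quartile scaling (squares) and after TPM scaling (diamonds), with dashed lines at 2-fold. Lim3, Lim1, ct and acj6 stay above 2-fold in each of the 4 settings, and tup and zfh1 lie just under 0 with TPM.

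LIM-homeodomain proteins work in complexes held together by Chip, encoded by Chi, and the Chip-binding protein encoded by Ssdp, while Bx encodes a LIM-only protein that competes for Chip. Both Chi and Ssdp were lower in glia. Chi was at 49.1 FPKM in glia and 103.6 FPKM in GNP, a log2 change of -1.06, and Ssdp at 54.5 FPKM in glia and 132.9 FPKM in GNP, a change of -1.27. The change of Chi was -0.88, under 2-fold, after upper quartile scaling. Bx was at 9.06 FPKM in glia and 2.68 FPKM in GNP, a change of 1.45.

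The 4 LIM-homeodomain genes tup, Lim1, Lim3 and ap together reached 80.1 FPKM in glia and 35.1 FPKM in GNP. The level of Chi was thus 0.612 times their sum in glia and 2.95 times their sum in GNP. These are ratios of RNA per transcript length within a library, and protein was not measured. They compare levels in bulk nuclei, so they do not give the ratio within any cell. The other LIM-homeodomain genes followed in the same direction, with CG4328 at 5.28 FPKM in glia and 0.369 FPKM in GNP and CG32105 at 7.79 FPKM in glia and 1.53 FPKM in GNP. The highest of them, Awh, stayed under 2-fold at 11.9 FPKM in glia and 6.66 FPKM in GNP.

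A wider set of related neuronal factors was written by hand from general knowledge, with earlier results of these data known. Of its 34 genes in the table, Chi, Ssdp, Bx and the other LIM-homeodomain genes included, 12 were at least 2-fold higher in glia and 6 at least 2-fold lower, 3 of which (Chi, nub and gsb-n) were under the limit after upper quartile scaling. These shares, 35.3% and 17.6%, lie near those of genes averaging 1 FPKM or more, 28.7% and 22.5%. The median log2 change was 0.65. Among the other motor neuron factors eve was at 12.9 FPKM in glia and 4.02 FPKM in GNP, a change of 1.47. The ventral motor neuron gene HGTX, at 11.8 FPKM in glia and 10.2 FPKM in GNP, and grn, at 29.2 FPKM in glia and 18.3 FPKM in GNP, stayed under 2-fold.

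The POU factors, the family of acj6, split. The gene pdm3 was at 12.9 FPKM in glia and 0.966 FPKM in GNP, a log2 change of 2.82. The neuroblast factors nub and pdm2 were lower in glia, with nub at 14.4 FPKM in glia and 31.4 FPKM in GNP and pdm2 at 14.6 FPKM in glia and 47.6 FPKM in GNP. The highest POU gene, vvl, was at 64.9 FPKM in glia and 41.2 FPKM in GNP, under 2-fold.

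Of the 21 other interneuron and peptidergic factors 7 were at least 2-fold higher in glia and 2 at least 2-fold lower, or 33.3% and 9.52%, so the share higher is also near the 28.7% of expressed genes. On the log2(FPKM + 1) scale Ptx1 had the largest change, 1.93, at 35.0 FPKM in glia and 8.45 FPKM in GNP, a plain ratio of 4.15. Plain ratios were larger for genes that were low in GNP, such as unc-4 at 7.96 and bsh at 9.88, with bsh at 1.12 FPKM in glia and 0.113 FPKM in GNP. The others at least 2-fold higher with 1 FPKM added were onecut, unc-4, kn, otp, Dbx and dac, with log2 changes of 1.89, 1.76, 1.62, 1.61, 1.27 and 1.21. The segment genes en and gsb-n, which also pattern the epidermis, were lower in glia, with log2 changes of -1.53 and -1.16. The highest level was that of scrt, a zinc finger gene of many neurons, at 62.0 FPKM in glia and 43.4 FPKM in GNP.

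Over the 2 values of log2(FPKM + 1), the related factor nearest to each of the 8 was pdm3 for Lim3, onecut for Lim1, Ptx1 for ct, Rx for acj6, Awh for exex, sqz for ap, zfh2 for tup and scrt for zfh1. The distances ran from 0.14 for exex and Awh to 0.72 for Lim3 and pdm3. With 2 libraries this likeness says only that both levels were close.

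Of 15 effector genes, which carry out subtype traits of neurons, 9 were at least 2-fold higher in glia and 1 at least 2-fold lower, or 60.0% and 6.67%, with a median log2 change of 1.58. Over all genes the shares were 21.2% and 16.4%, and among genes averaging 1 FPKM or more they were 28.7% and 22.5%. This list too was written with earlier results of these data known. Sh, a potassium channel gene repressed by tup in some motor neurons, was at 41.4 FPKM in glia and 3.62 FPKM in GNP, the largest change of the list with 1 FPKM added at 3.20. By plain ratio VAChT, at 13.1, and ple, at 11.6, stood above Sh, at 11.4. The motor axon guidance gene beat-Ia was at 14.2 FPKM in glia and 1.38 FPKM in GNP, and Fas3, an adhesion gene of axons and epithelia, had the highest glial level at 325.0 FPKM, against 53.3 FPKM in GNP.

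Transmitter genes were among them. VAChT and Cha of cholinergic neurons had log2 changes of 3.12 and 2.19, ple of dopamine synthesis 2.74, VGlut of glutamatergic motor neurons 1.98 and Gad1 of GABA synthesis 1.58. Ddc, which makes dopamine and serotonin, was at 1.54 FPKM in glia and 1.58 FPKM in GNP. The Netrin receptor gene unc-5 was at 35.9 FPKM in glia and 60.5 FPKM in GNP, under 2-fold. The Robo family gene lea was lower, at 48.4 FPKM in glia and 141.9 FPKM in GNP. The neuropeptide gene Fmrf, a known target of ap, was at 0.216 FPKM in glia and 0.0632 FPKM in GNP.

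**Figure D4:**
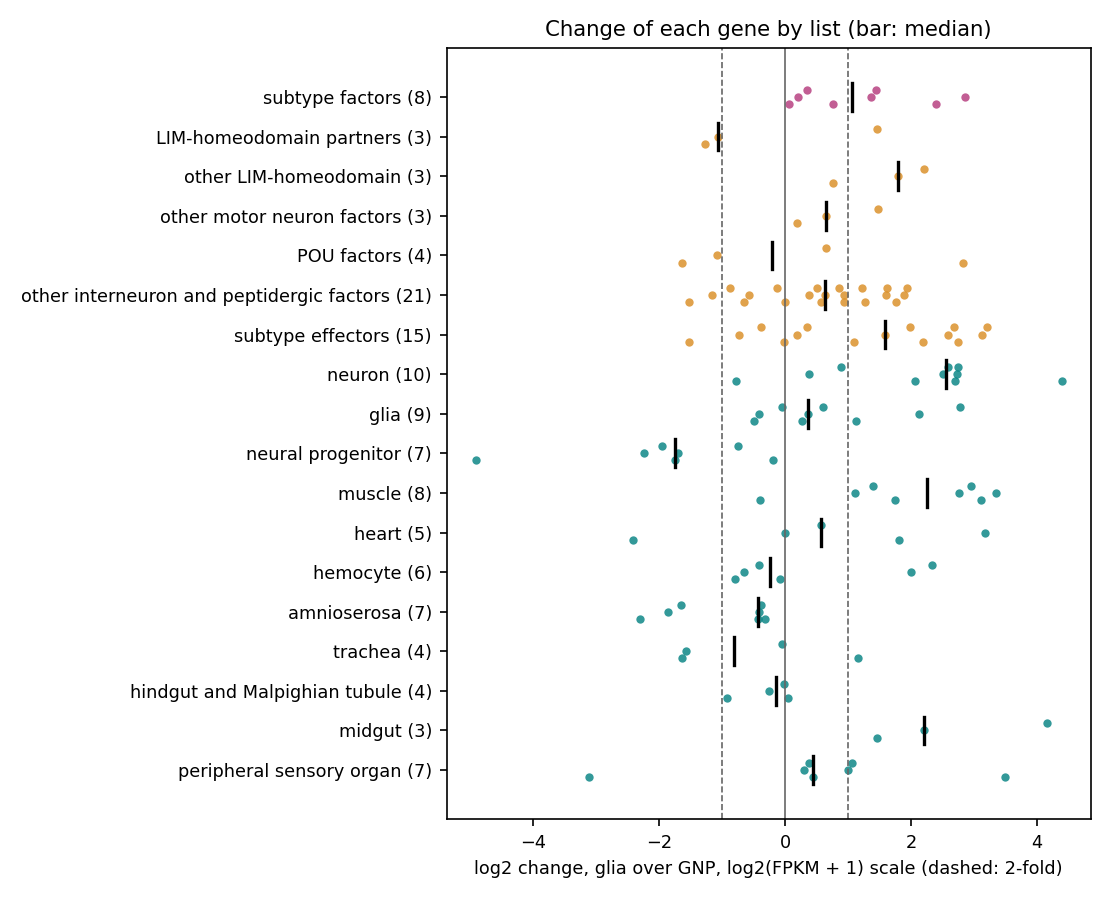
The log2 change of each gene, glia over GNP on the log2(FPKM + 1) scale, by list, with the number of genes in brackets, a bar at each median and dashed lines at 2-fold; subtype factors are at the top, related factors and effectors below them, and cell type markers at the bottom. The median of the subtype factors is 1.06, that of the neuron markers 2.55 and that of the muscle markers 2.25.

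Most neuron markers were higher in glia. So were Lim3, Lim1, ct and acj6. These factors are singled out for passing the upward limit, so the shared direction was given in advance. The factors under the limit, exex, ap, tup and zfh1, had log2 changes of 0.75, 0.34, 0.21 and 0.062. Median log2 changes were 2.55 for neuron, 2.25 for muscle and 2.21 for midgut markers. Those of progenitor, hemocyte, amnioserosa, trachea and hindgut lists were negative. The share past 2-fold upwards was 70% of neuron markers and 28.7% of genes averaging 1 FPKM or more. Of 10 neuron markers 7 were at least 2-fold higher in glia, their summed level was 611.0 FPKM in glia and 128.0 FPKM in GNP, and none was at 0. The RNA-binding protein gene fne was at 327.0 FPKM in glia and 14.7 FPKM in GNP. The pan-neuronal gene elav was an exception, at 44.2 FPKM in glia and 76.9 FPKM in GNP, a log2 change of -0.78. In such bulk nuclei more cells of a type and more RNA per cell cannot be told apart, and the part of neuronal RNA in the values of the 8 factors was not tested.

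The labelled cell types were checked with lists of their own markers. The gene gcm, which the paper uses as a GNP marker and reports as down-regulated in glia, was in neither list. Of 9 glial markers 3 were at least 2-fold higher in glia and 3 had lower values there, with a median log2 change of 0.36. The share past 2-fold upwards, 33.3%, lies near the 28.7% of genes averaging 1 FPKM or more. The glial regulator repo was at 32.0 FPKM in glia and 3.84 FPKM in GNP, while bnb, the highest of the list, was at 409.5 FPKM in glia and 576.5 FPKM in GNP. The summed glial level was 934.8 FPKM in glia and 885.2 FPKM in GNP. Of 7 neural progenitor markers 5, or 71.4%, were at least 2-fold lower in glia, against 22.5% of genes averaging 1 FPKM or more. Among them l(1)sc was at 2.10 FPKM in glia and 92.4 FPKM in GNP. SoxN, under 2-fold, was at 44.8 FPKM in glia and 51.4 FPKM in GNP. No glial or progenitor marker was at 0 in either library.

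Markers of other tissues in which the 8 factors are used were also measured. Of genes averaging 1 FPKM or more, 28.7% were at least 2-fold higher in glia and 22.5% lower. The share higher was 87.5% of muscle, 100% of midgut, 40% of heart, 33.3% of hemocyte, 28.6% of sensory organ and 25% of trachea markers. The share lower was 50% of trachea, 42.9% of amnioserosa, 20% of heart and 14.3% of sensory organ markers. The lists are short, so 1 gene moves a share widely. Of 8 muscle markers 7 were at least 2-fold higher in glia, with a summed level of 5739 FPKM in glia and 875.3 FPKM in GNP. Act57B alone was at 3197 FPKM in glia and 473.3 FPKM in GNP, wupA had the largest log2 change at 3.34, and the regulator Mef2 was at 43.7 FPKM in glia and 58.3 FPKM in GNP. All 3 midgut markers were at least 2-fold higher, summing to 253.6 FPKM in glia and 26.6 FPKM in GNP, of which mex1 gave 196.2 FPKM in glia and 10.1 FPKM in GNP. Of 5 heart markers 2 were at least 2-fold higher and 1 lower, with Hand at 55.1 FPKM in glia and 5.21 FPKM in GNP and tin at 1.95 FPKM in glia and 14.7 FPKM in GNP.

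Amnioserosa markers, from a tissue that expresses tup, were at least 2-fold lower in 3 of 7 cases and summed to 216.6 FPKM in glia and 349.4 FPKM in GNP. Ance was the highest of them, at 140.6 FPKM in glia and 184.2 FPKM in GNP, and Doc3 the furthest lower, at 5.30 FPKM in glia and 30.0 FPKM in GNP. Peripheral sensory organ markers, from a tissue that expresses ct, were at least 2-fold higher in 2 of 7 cases and lower in 1. These shares, 28.6% and 14.3%, are not above the 28.7% and 22.5% of genes averaging 1 FPKM or more. Their sum was 79.1 FPKM in glia and 35.8 FPKM in GNP, with nompA of the sensory organ sheath at 54.2 FPKM in glia and 3.92 FPKM in GNP and the precursor gene sens at 1.55 FPKM in glia and 21.2 FPKM in GNP.

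None of 4 hindgut and Malpighian tubule markers changed 2-fold, except fkh under TPM scaling, and their sum was 129.4 FPKM in glia and 159.2 FPKM in GNP. The highest, drm, was at 82.8 FPKM in glia and 84.4 FPKM in GNP, fkh at 27.4 FPKM in glia and 52.9 FPKM in GNP, and byn at 5.11 FPKM in glia and 4.94 FPKM in GNP. Trachea markers were at least 2-fold higher in 1 of 4 cases and lower in 2, with sums of 120.8 FPKM in glia and 324.1 FPKM in GNP. Among them rib was at 89.1 FPKM in glia and 279.6 FPKM in GNP, and dys at 2.73 FPKM in glia and 0.666 FPKM in GNP. Of 6 hemocyte markers 2 were at least 2-fold higher, the matrix genes Cg25C, at 291.9 FPKM in glia and 72.7 FPKM in GNP, and Pxn, at 55.4 FPKM in glia and 10.2 FPKM in GNP. The other 4 had lower values in glia, all under 2-fold on the log2(FPKM + 1) scale, with Hml at 0.120 FPKM in glia and 0.945 FPKM in GNP and eater listed at 0 in glia. The median log2 change of the list was -0.25, although its sum was 397.9 FPKM in glia and 158.6 FPKM in GNP. The part of each of these tissues in the values of the 8 factors was not tested.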

How the data were processed

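The data were nuclear RNA of 1 glia and 1 GNP library. Single-end reads were mapped by the authors to FlyBase transcripts using TopHat v1.3.1, and Cuffdiff v1.3.0 gave the deposited FPKM level of every gene. No further scaling between the libraries is stated. The deposited table also holds, in 2 columns, a p-value and a call from the authors' own comparison, and neither was used.

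The change of each gene was log2((FPKM in glia + 1)/(FPKM in GNP + 1)). Genes past a limit of 2-fold were counted without a test. The members and the other 17 lists were chosen with earlier results of these data known. Genes were named where they are one of the 8 factors, changed at least 2-fold in a related list, were the extremes or the highest of a list, or were the related factor nearest to one of the 8. Fmrf, unc-5, Ddc, bsh and eater were named after their values were seen. Drgx, twit and NimC1 of the lists were not analysed here. Depth was estimated from genes whose 1 annotated transcript had 600 bases or more. Of their low values 85.1% in glia and 84.7% in GNP lay within 0.1 of a whole read. The alternatives were a pseudocount of 0.1, median centring, upper quartile scaling, TPM, a mean of at least 1 FPKM, and limits of 1.5-fold and 4-fold. The counting steps were also run on GNP values multiplied by set factors without noise. This checks the arithmetic only, not the spread between libraries. The tools were Python 3.11.15 with pandas 2.3.3 and numpy 2.4.6, scipy 1.17.1 for intervals and matplotlib 3.10.9 for figures.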

Additional observations from a re-analysis of the deposited data

How the results depend on the processing

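The direction and the side of the 2-fold limit of Lim3, Lim1, ct, acj6, exex and ap were the same under each pseudocount and scaling tried. The filter on mean level cannot change the value of a single gene. Scaling to TPM turned tup to -0.037, zfh1 to -0.19, HGTX to -0.039 and byn to -0.17 on the log2 scale, took elav and fkh past 2-fold at -1.04 and -1.18 and took the median of the 8 factors to 0.87, because it lowers glia against GNP by a log2 factor of -0.25. With a limit of 4-fold 2 of the factors were higher, and among all 13623 genes 1153 passed upwards and 614 downwards, as a stricter limit must give fewer. Upper quartile scaling brought Chi to -0.88, nub to -0.90 and gsb-n to -0.99, all under 2-fold, turned drm to 0.15 and Ddc to 0.090, and turned the median of the hindgut and Malpighian tubule markers from -0.14 to 0.035. A mean of at least 1 FPKM turned that of the hemocyte markers from -0.25 to 0.79, because it leaves out markers near 0. Dropping the pseudocount, an alternative added after the values were seen, left 4 factors at least 2-fold higher, but the share of genes above 0 in both libraries that passed was then 32.9% upwards and 23.8% downwards, a higher background. Of 545 alternative values of 90 results, 517 kept their sign and side of the limit, or stayed within 1.5 times of the main count. Part of this was fixed in advance, since the filter on mean level leaves single-gene values as they were. Median centring shifts every gene by only -0.037. No paired analysis was possible because each group was 1 library. None of these settings replaces a replicate.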
